A study of Drosophila melanogaster with 9 samples.

Results

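Both single germline knockdowns of the study were compared with each other directly, gene by gene, in ovarian RNA of *Drosophila melanogaster*. The comparison used 4 of the 8 RNA libraries, 2 with the label Piwi-GKD and 2 with the label HP1a-GKD, where GKD stands for germline knockdown. The 2 Ctrl libraries and the 2 double-GKD libraries stand beside them as background and entered the same statistical model. A ninth sample of the series, genomic DNA of double-GKD flies, was not used here. All flies carried UAS-Dcr-2.D with w[1118] on the X and the GAL4-nos.NGT driver on chromosome 2, in which the promoter of nanos drives GAL4 in the germline, so the somatic cells of the ovary are not targeted. According to the labels, Piwi-GKD females carried UAS-Piwi-RNAi (#101658, VDRC) opposite the driver and +/TM3 as chromosome 3. HP1a-GKD females carried the driver over Cy and UAS-HP1a-RNAi (#31994, VDRC) over a wild-type chromosome 3, double-GKD females carried both RNAi constructs, and Ctrl females carried the driver over Cy and +/TM3. Ovaries came from females 0 to 1 day old grown at 18 °C, with 2 biological replicates per genotype.

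Names of tables and labels contradict each other for the single knockdowns. The tables of the Piwi-GKD-labelled libraries are named Pwt-Hkd, that is, wild type for Piwi with HP1a knocked down, and those of the HP1a-GKD-labelled libraries are named Pkd-Hwt. The groups are therefore called by their labels throughout, as the Piwi-GKD-labelled libraries and the HP1a-GKD-labelled libraries, and an exchange of both labels would turn the sign of every direct difference and leave its size as it is.

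Piwi is a nuclear Argonaute protein that, guided by piRNAs, directs the transcriptional silencing of transposable elements in ovarian cells. HP1a binds methylated lysine 9 of histone H3 and builds heterochromatin at transposable elements, at pericentromeric regions and along chromosome 4. The germ cells of the ovary are the nurse cells and the oocyte, which are enclosed by somatic follicle cells, and the ovarioles lie in a muscle sheath. In bulk RNA of whole ovaries, fewer cells of a type and less RNA per cell cannot be told apart.

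The mRNA of both targets was read first, in every library. Levels are given in TPM, a length-scaled share of the transcripts in a library, which allow for the length of the gene. *piwi* (FBgn0004872, arm 2L) stood at 259 and 229 TPM in the Piwi-GKD-labelled libraries, at 129 and 134 TPM in the HP1a-GKD-labelled ones, at 158 and 147 TPM in double-GKD and at 318 and 276 TPM in Ctrl. The HP1a-GKD-labelled libraries were the lowest of all 4 groups, and no library of one single knockdown overlapped the other. *HP1a* (FBgn0003607, arm 2L) stood at 166 and 189 TPM in the Piwi-GKD-labelled libraries, at 342 and 358 TPM in the HP1a-GKD-labelled ones, at 161 and 172 TPM in double-GKD and at 327 and 328 TPM in Ctrl. Here the Piwi-GKD-labelled libraries lay beside double-GKD, and the HP1a-GKD-labelled ones above Ctrl. In the direct comparison the log2 fold change, Piwi-GKD-labelled over HP1a-GKD-labelled, was 0.54 (SE 0.08, adjusted p = 7.5e-04) for *piwi* and -1.26 (SE 0.15, adjusted p = 3.3e-04) for *HP1a*, by edgeR's quasi-likelihood test with Benjamini-Hochberg adjustment over all genes tested. Against Ctrl, *piwi* fell in both groups, with log2 fold changes of -0.68 (SE 0.08, adjusted p = 2.3e-04) in the Piwi-GKD-labelled libraries and -1.23 (SE 0.08, adjusted p = 6.5e-04) in the HP1a-GKD-labelled ones. *HP1a* fell in the Piwi-GKD-labelled libraries, with -1.27 (SE 0.15, adjusted p = 2.9e-04), and stood at -0.0022 (SE 0.14, adjusted p = 0.997) in the HP1a-GKD-labelled ones. The target mRNAs therefore go with the names of the tables and against the labels, and every direction below carries that limit. By those names the Piwi-GKD-labelled libraries are the HP1a knockdown and the HP1a-GKD-labelled ones the Piwi knockdown.

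**Figure D1:**
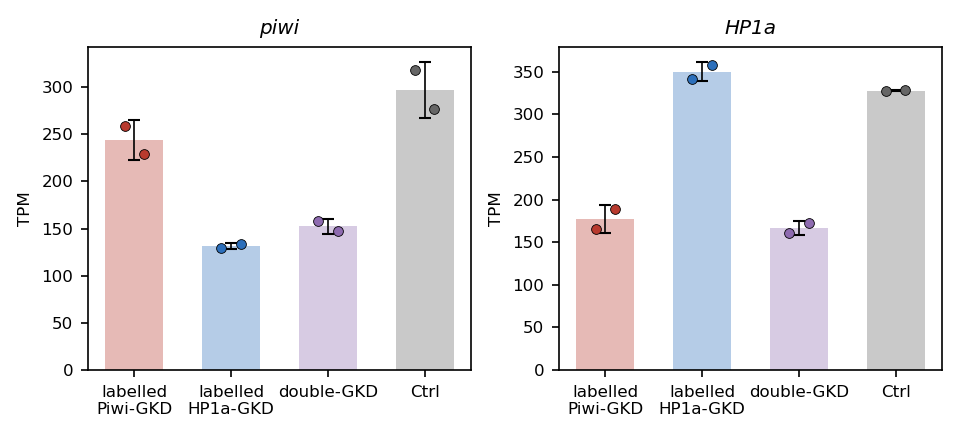
TPM of *piwi* (left) and *HP1a* (right) in the Piwi-GKD-labelled libraries, the HP1a-GKD-labelled ones, double-GKD and Ctrl. Bars are means, points the 2 libraries and error bars the SD. *piwi* was lowest in the HP1a-GKD-labelled libraries (129 and 134 TPM), and *HP1a* stood between 161 and 189 TPM in the Piwi-GKD-labelled libraries and double-GKD.

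Most of the genes tested differed between both single knockdowns. Of 9346 genes with enough counts, 5165 (55.3%) passed an adjusted p of 0.05, of which 2565 (27.4%) were higher in the Piwi-GKD-labelled libraries and 2600 (27.8%) were higher in the HP1a-GKD-labelled ones. The larger differences lay on one side, since 1554 genes (16.6%) were over 2-fold higher in the Piwi-GKD-labelled libraries and 822 (8.8%) over 2-fold higher in the HP1a-GKD-labelled ones. The median size of a called difference was 0.93 on the log2 scale. DESeq2 called 2339 genes higher in the Piwi-GKD-labelled libraries and 2423 higher in the HP1a-GKD-labelled ones. The balance of both directions rests on the scaling between libraries, because with library totals in place of TMM factors 3467 genes were higher in the Piwi-GKD-labelled libraries and 1714 higher in the HP1a-GKD-labelled ones, so that 66.9% of the calls rather than 49.7% lay on the side of the Piwi-GKD-labelled libraries. That scaling put the median log2 fold change of all genes at 0.23, against 0.0040 with TMM. TPM carry a similar shift, and the log2 ratio of mean TPM ran a median of 0.35 above the log2 fold change of edgeR. All 2565 genes called higher in the Piwi-GKD-labelled libraries were also higher there by mean TPM, as were 2407 of the 2600 genes (92.6%) called higher in the HP1a-GKD-labelled libraries, and all 822 of these that passed 2-fold.

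**Figure D2:**
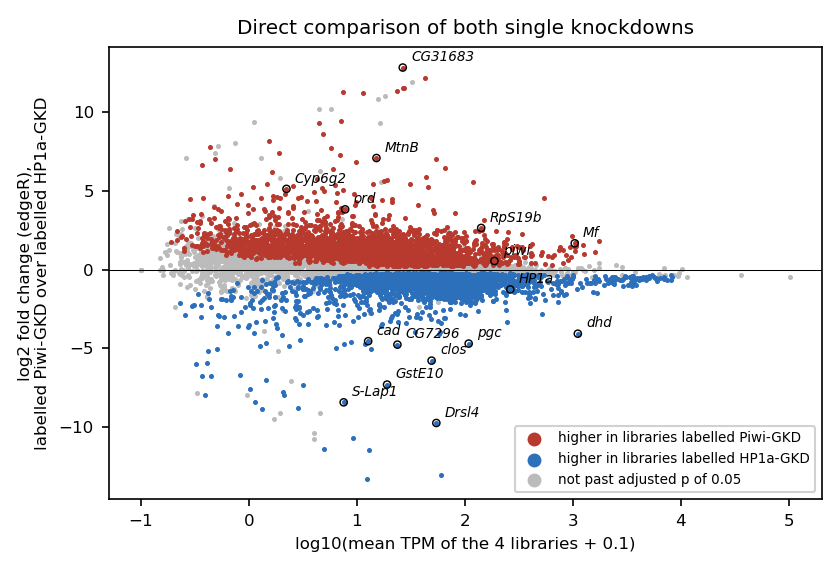
Each point is 1 of the 9346 genes tested, with the log10 of its mean TPM over the 4 single-knockdown libraries (plus 0.1) across and the edgeR log2 fold change, Piwi-GKD-labelled over HP1a-GKD-labelled, upward. Red points (2565) were higher in the Piwi-GKD-labelled libraries, blue points (2600) in the HP1a-GKD-labelled ones and grey points did not pass the adjusted threshold. The named genes range from *CG31683* at the top to *Drsl4* near the bottom.

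The most abundant genes over 2-fold higher in the Piwi-GKD-labelled libraries were mainly genes of the contractile apparatus. *Mlc2*, a myosin light chain, had 2118 and 1844 TPM in the Piwi-GKD-labelled libraries, against 506 and 528 TPM in the HP1a-GKD-labelled ones and 460 and 476 TPM in Ctrl (log2 fold change 1.58, SE 0.09, adjusted p = 2.5e-05, edgeR). *Mf*, which encodes the thick filament protein myofilin, had 1715 and 1649 TPM in the Piwi-GKD-labelled libraries, against 371 and 434 TPM in the HP1a-GKD-labelled ones and 341 and 356 TPM in Ctrl. Troponin I (*wupA*) had 1693 and 1654 TPM in the Piwi-GKD-labelled libraries, against 459 and 475 TPM in the HP1a-GKD-labelled ones and 397 and 416 TPM in Ctrl. In all 3 genes the HP1a-GKD-labelled libraries lay just above Ctrl and far from the Piwi-GKD-labelled ones. The muscle actin *Act57B* (log2 fold change 1.13, SE 0.13, adjusted p = 3.1e-04), *CG7443* (1.75, SE 0.14, adjusted p = 5.9e-05) and *CG34446* (1.78, SE 0.19, adjusted p = 2.0e-04) completed the 6 most abundant. *CG34446* was the highest by TPM, with 2947 and 2753 TPM in the Piwi-GKD-labelled libraries, against 597 and 705 TPM in the HP1a-GKD-labelled ones. It had only 234 and 239 counts in the Piwi-GKD-labelled libraries and 60 and 68 in the HP1a-GKD-labelled ones. Its rank therefore rests on the scaling by gene length.

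Some genes had reads only on one side of the comparison. *CG31683* had 53.8 and 52.2 TPM in the Piwi-GKD-labelled libraries, against 0 in both HP1a-GKD-labelled ones, and 32.8 and 30.9 TPM in Ctrl. Against a floor of 3 counts per library this is at least 294-fold higher in the Piwi-GKD-labelled libraries (adjusted p = 0.0081, edgeR), and the gene overlaps a neighbour, so the split of its reads is uncertain. *CG4438* had 13.5 and 14.6 TPM in the Piwi-GKD-labelled libraries, 0 in both HP1a-GKD-labelled ones and 0 in both Ctrl libraries (at least 27.9-fold higher, adjusted p = 8.8e-05). It was also present in double-GKD, at 25.7 and 28.1 TPM. The gene *CG8119* (at least 16.1-fold higher, adjusted p = 3.8e-04), *karr* (at least 8.57-fold higher, adjusted p = 0.0011) and *MtnB*, a metallothionein (at least 5.45-fold higher, adjusted p = 0.0016), were likewise without counts in the HP1a-GKD-labelled libraries. Of the 8 largest differences on this side 4 were copies of the histone H1 gene (*His1:CG33864*, *His1:CG33846*, *His1:CG33849* and *His1:CG33843*), and another copy, *His1:CG33852*, was the largest on the other side, with 0 counts in both Piwi-GKD-labelled libraries, against 195 and 44.8 TPM in the HP1a-GKD-labelled ones. These copies are nearly identical, the counting can move their reads from one to another, and each of the 4 missed the adjusted threshold when any 1 of the 4 libraries was left out, so no direction is read from them.

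The genes higher in the HP1a-GKD-labelled libraries included maternal transcripts and egg proteins. *dhd*, the thioredoxin deadhead of the oocyte-to-embryo transition, had 142 and 168 TPM in the Piwi-GKD-labelled libraries, against 2284 and 1859 TPM in the HP1a-GKD-labelled ones and 2864 and 3314 TPM in Ctrl (log2 fold change -4.08, SE 0.26, adjusted p = 3.1e-05, edgeR). *clos*, whose product closca is built into the vitelline membrane, had 2.28 and 2.14 TPM in the Piwi-GKD-labelled libraries, against 96.4 and 95.7 TPM in the HP1a-GKD-labelled ones and 119 and 107 TPM in Ctrl (-5.79, SE 0.10, adjusted p = 6.6e-07). *cad*, the maternally supplied homeobox factor caudal, had 1.71 and 0.916 TPM in the Piwi-GKD-labelled libraries, against 23.4 and 24.5 TPM in the HP1a-GKD-labelled ones and 32.4 and 21.6 TPM in Ctrl (-4.55, SE 0.24, adjusted p = 2.0e-05). For all 3 genes the Piwi-GKD-labelled libraries were the low group, and the HP1a-GKD-labelled ones did not pass the adjusted threshold against Ctrl. For *cad* the HP1a-GKD-labelled libraries lay within the range of Ctrl. For *dhd* and *clos* they lay below both Ctrl libraries, with log2 fold changes against Ctrl of -0.63 (SE 0.23) and -0.29 (SE 0.08). The same order was seen in *Nop10* and *RpS5b*, among the most abundant genes on this side. *Nop10*, a small nucleolar ribonucleoprotein subunit, had 934 and 1137 TPM in the Piwi-GKD-labelled libraries, against 2434 and 2191 TPM in the HP1a-GKD-labelled ones and 2502 and 2751 TPM in Ctrl. *RpS5b*, the germline paralogue of a small-subunit ribosomal protein, had 996 and 937 TPM in the Piwi-GKD-labelled libraries, against 2126 and 2051 TPM in the HP1a-GKD-labelled ones and 2193 and 2394 TPM in Ctrl. *RpS2* (log2 fold change -1.02, SE 0.08), *Hsp83* (-1.05, SE 0.14) and *Nacalpha* (-1.11, SE 0.12) passed as well, with adjusted p of 5.3e-05, 6.6e-04 and 2.3e-04 in edgeR.

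A few genes on this side were high in the HP1a-GKD-labelled libraries and low in all others. *Drsl4*, a relative of the antifungal peptide drosomycin, had 0 counts in both Piwi-GKD-labelled libraries, against 104 and 114 TPM in the HP1a-GKD-labelled ones, 0 in both double-GKD libraries and 6.52 and 10.5 TPM in Ctrl (at least 37.4-fold higher in the HP1a-GKD-labelled libraries than in the Piwi-GKD-labelled ones, adjusted p = 1.7e-04, edgeR). *S-Lap1*, a leucyl aminopeptidase of sperm, had 0.0504 and 0.0461 TPM in the Piwi-GKD-labelled libraries, against 14.1 and 15.6 TPM in the HP1a-GKD-labelled ones, 0.106 and 0.163 TPM in double-GKD and 2.47 and 3.50 TPM in Ctrl. With 1 count in each of the Piwi-GKD-labelled libraries, the ratio of HP1a-GKD-labelled to Piwi-GKD-labelled counts of *S-Lap1*, scaled by library size, was 392 (95% exact counting interval 108 to 3240). *GstE10*, a glutathione S-transferase, had 0.180 and 0.407 TPM in the Piwi-GKD-labelled libraries, against 36.0 and 39.1 TPM in the HP1a-GKD-labelled ones, 8.24 and 0.959 TPM in double-GKD and 0.498 and 0.548 TPM in Ctrl (log2 fold change -7.31, SE 0.99, adjusted p = 6.6e-04), and its log2 fold change was -8.27 without Piwi-GKD-labelled replicate 2. All 3 were above Ctrl only in the HP1a-GKD-labelled libraries, with adjusted p against Ctrl of 0.021, 0.0086 and 0.025, except that *GstE10* was also high in 1 of the double-GKD libraries. *ms(3)76Ba*, by contrast, had 0.0453 and 0.0414 TPM in the Piwi-GKD-labelled libraries, against 6.33 and 5.97 TPM in the HP1a-GKD-labelled ones and 6.30 and 5.79 TPM in Ctrl.

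A gene was called specific to 1 knockdown where it passed the adjusted threshold in the direct comparison and against Ctrl in that knockdown, in the same direction, and did not pass it against Ctrl in the other. Both comparisons with Ctrl share the same 2 Ctrl libraries. By this rule 4605 genes were specific to the Piwi-GKD-labelled libraries, 2269 of them upregulated (24.3% of the genes tested) and 2336 downregulated (25.0%). Only 30 were specific to the HP1a-GKD-labelled libraries, 18 upregulated (0.193%) and 12 downregulated (0.128%). The comparisons with Ctrl differed in size as well. In the Piwi-GKD-labelled libraries 2739 genes rose (29.3%) and 2723 fell (29.1%), while in the HP1a-GKD-labelled ones 82 rose (0.877%) and 46 fell (0.492%), 128 genes in all (1.37%). At an unadjusted p of 0.05 the HP1a-GKD-labelled libraries differed from Ctrl in 1055 genes. Of the 2600 genes higher in the HP1a-GKD-labelled libraries, 2336 were thus downregulated only in the Piwi-GKD-labelled ones, 203 passed neither comparison with Ctrl, and 61 passed the one of the HP1a-GKD-labelled libraries.

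Among the upregulated genes specific to the Piwi-GKD-labelled libraries, after *CG4438*, *CG8119*, *karr* and *MtnB* already described, came *CG11929*, with 3.86 and 3.37 TPM in the Piwi-GKD-labelled libraries, against 0.0267 and 0 TPM in the HP1a-GKD-labelled ones and 0.171 and 0.377 TPM in Ctrl. The nitric oxide synthase gene *Nos* was called as well (log2 fold change 7.27, SE 2.00, adjusted p = 0.018, edgeR). That call depended on single libraries. *Nos* had 0.263 and 27.3 TPM in the Piwi-GKD-labelled libraries, against 0.0501 and 0.106 TPM in the HP1a-GKD-labelled ones, and without Piwi-GKD-labelled replicate 2 the log2 fold change of *Nos* was 1.63 (adjusted p = 0.16). Without HP1a-GKD-labelled replicate 1 or 2 the call of *Nos* was lost as well (adjusted p = 0.11 and 0.093). The downregulated genes specific to the Piwi-GKD-labelled libraries with the largest differences were *ms(3)76Ba*, *CG41284*, *CG4367*, *CG18088*, *CG9825* and *Hsp70Ba*, all of them under 8 TPM in every library of the 3 groups. *CG4367* had 0 counts in both Piwi-GKD-labelled libraries and 3.55 and 4.53 TPM in the HP1a-GKD-labelled ones (at least 10.7-fold lower in the Piwi-GKD-labelled libraries). The heat shock gene *Hsp70Ba* had 0 and 0.0548 TPM in the Piwi-GKD-labelled libraries, against 0.649 and 4.70 TPM in the HP1a-GKD-labelled ones and 0.342 and 7.32 TPM in Ctrl, so replicates of 1 group differed as much as groups, and its call was lost without HP1a-GKD-labelled replicate 2 or either Piwi-GKD-labelled replicate (adjusted p from 0.12 to 0.18, edgeR).

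The 18 upregulated genes specific to the HP1a-GKD-labelled libraries had a median log2 fold change against Ctrl of 3.91, while the median of the same genes in the Piwi-GKD-labelled libraries was 0.13. A gap between these medians follows from the rule that chose the genes and is not a separate result. The largest direct differences, besides *GstE10*, were in genes without reads in Ctrl or close to it. *CG7296* had 2.20 and 1.98 TPM in the Piwi-GKD-labelled libraries, against 47.7 and 42.6 TPM in the HP1a-GKD-labelled ones, 5.14 and 6.12 TPM in double-GKD and 0.688 and 0.604 TPM in Ctrl (log2 fold change -4.77, SE 0.24, adjusted p = 1.8e-05, edgeR). *CG15253* had 0 counts in both Piwi-GKD-labelled libraries, against 3.49 and 4.40 TPM in the HP1a-GKD-labelled ones, and 0 counts in both Ctrl libraries (at least 9.49-fold higher in the HP1a-GKD-labelled libraries). *CG9010* had the same pattern at 2.21 and 1.46 TPM in the HP1a-GKD-labelled libraries (at least 8.28-fold higher). These 3 genes were each on chromosome 2, and in each the HP1a-GKD-labelled libraries were the highest. Double-GKD had reads of all 3, at 0.971 and 1.04 TPM for *CG15253* and 0.624 and 0.876 TPM for *CG9010*. *CG43290* had 1.13 and 0.258 TPM in the Piwi-GKD-labelled libraries, against 15.4 and 13.5 TPM in the HP1a-GKD-labelled ones, 3.57 and 3.19 TPM in double-GKD and 0.476 and 0.839 TPM in Ctrl. *CG18636* had 0 and 0.216 TPM in the Piwi-GKD-labelled libraries, against 2.51 and 2.62 TPM in the HP1a-GKD-labelled ones, 0.745 and 0.666 TPM in double-GKD and 0 counts in both Ctrl libraries.

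The other 12 genes of this class, apart from *CG34430*, were named after their values were seen. *spok*, a cytochrome P450 of ecdysteroid synthesis, had 0.457 and 0.777 TPM in the Piwi-GKD-labelled libraries, against 4.39 and 4.79 TPM in the HP1a-GKD-labelled ones and 0.165 and 0.436 TPM in Ctrl. *TTLL5*, a tubulin glutamylase, had 13.3 and 13.1 TPM in the Piwi-GKD-labelled libraries, against 40.7 and 30.4 TPM in the HP1a-GKD-labelled ones and 13.8 and 11.0 TPM in Ctrl. *CG2187* had 3.82 and 3.13 TPM in the Piwi-GKD-labelled libraries, against 31.1 and 29.3 TPM in the HP1a-GKD-labelled ones and 4.11 and 4.01 TPM in double-GKD. *ppk13*, a sodium channel subunit of the pickpocket family, *prom*, a prominin, *CG34109*, *CG34430* and *CG42750* stood under 0.9 TPM in the Piwi-GKD-labelled libraries and between 1.01 and 3.42 TPM in the HP1a-GKD-labelled ones. Of these, *CG42750* was higher still in double-GKD, at 7.09 and 4.42 TPM. *FucTB*, a fucosyltransferase, the signal peptide peptidase-like gene *SppL*, *CG14275* and *Bhmt* changed least, with direct log2 fold changes of -0.82, -0.53, -1.18 and -0.48. In 4 of the 18 genes, *CG42750*, *FucTB*, *CG14275* and *Bhmt*, the mean TPM of double-GKD was above both single knockdowns. *CG14275* had 205.5 and 220.9 TPM in double-GKD, against 173 and 179.8 TPM in the HP1a-GKD-labelled libraries.

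The 12 downregulated genes of the class were *Ada1-1*, *CG31086*, *CG14397*, *Cyp6g2*, *CG12674*, *eyg*, *nolo*, *stol*, *Hasp*, *Strica*, *CG4752* and *CG31673*, of which the last 6 were named after their values were seen. *CG12674* had 9.32 and 6.44 TPM in the Piwi-GKD-labelled libraries, against 0.327 and 0.256 TPM in the HP1a-GKD-labelled ones, 0 and 0.251 TPM in double-GKD and 6.37 and 7.84 TPM in Ctrl (log2 fold change 4.34, SE 0.55, adjusted p = 4.9e-04, edgeR). *Cyp6g2*, a cytochrome P450, had 4.99 and 3.34 TPM in the Piwi-GKD-labelled libraries, against 0.0428 and 0.134 TPM in the HP1a-GKD-labelled ones and 1.79 and 1.97 TPM in Ctrl, a ratio of 37.0 between both knockdowns (95% exact counting interval 14.2 to 137). *eyg*, a Pax-type transcription factor, had 1.21 and 0.827 TPM in the Piwi-GKD-labelled libraries, against 0.0638 and 0.0973 TPM in the HP1a-GKD-labelled ones and 1.58 and 1.08 TPM in Ctrl. In these 3 genes both double-GKD libraries were as low as the HP1a-GKD-labelled ones, at 0.286 and 0.131 TPM for *Cyp6g2* and 0.128 and 0.127 TPM for *eyg*. *Ada1-1*, a subunit of the SAGA complex, *CG31086* and *CG14397* had 0 counts in both HP1a-GKD-labelled libraries and were at least 25.4-fold, 11.8-fold and 2.95-fold higher in the Piwi-GKD-labelled ones. *Ada1-1* and *CG31086* each overlap a neighbour, so the split of their reads is uncertain, and *CG31086* stood at 3.69 and 4.13 TPM in double-GKD. The caspase *Strica* had 3.39 and 3.62 TPM in the Piwi-GKD-labelled libraries, against 1.09 and 1.34 TPM in the HP1a-GKD-labelled ones, 3.87 and 3.51 TPM in double-GKD and 2.78 and 2.52 TPM in Ctrl. Double-GKD was thus not low in every gene of the class. Its mean TPM lay between both single knockdowns in 6 of the 12, at or above both in 3 and at or below both in 3.

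The size of this small class depended on single libraries. Of the 18 upregulated genes, 6 were called again among 7 without Ctrl replicate 1, 4 among 6 without Ctrl replicate 2, 5 among 5 without HP1a-GKD-labelled replicate 1 and 5 among 7 without replicate 2, and of the 12 downregulated genes, 6 were called again among 10, 2 among 3, 1 among 1 and 1 among 1 in the same order. The 128 genes that differed between the HP1a-GKD-labelled libraries and Ctrl became 65, 39, 24 and 31 in that order. DESeq2 called 30 upregulated and 24 downregulated genes, which included 18 and 10 of those above.

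**Figure D3:**
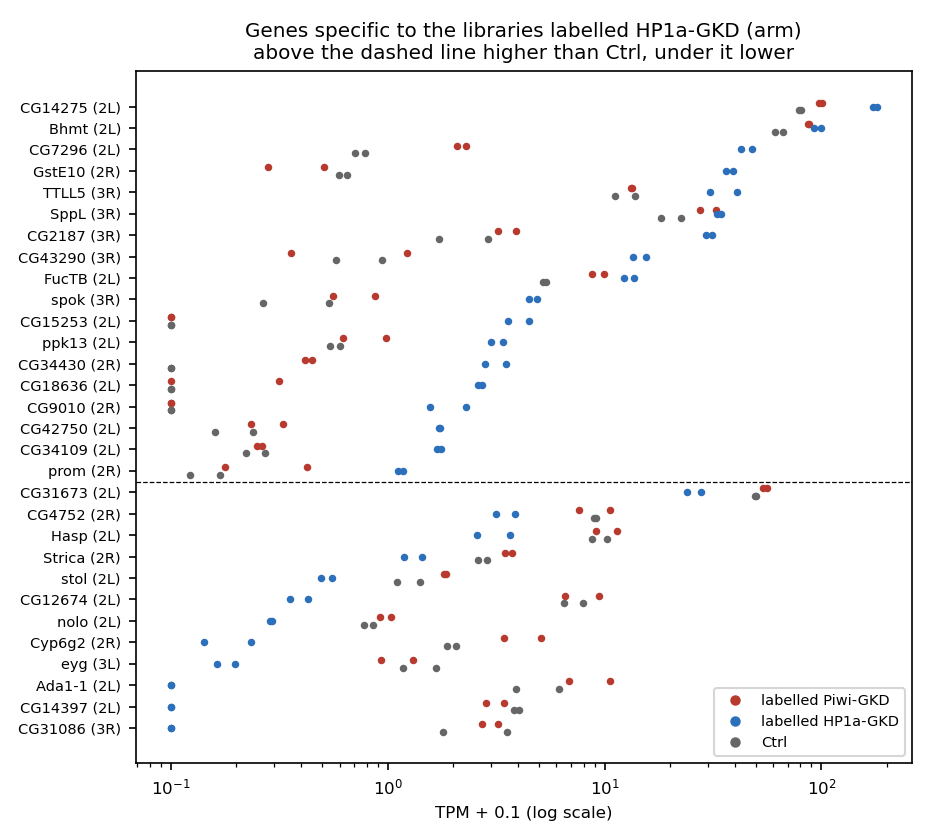
TPM plus 0.1 on a log axis for the 30 genes specific to the HP1a-GKD-labelled libraries, with 2 points each for the Piwi-GKD-labelled libraries (red), the HP1a-GKD-labelled ones (blue) and Ctrl (grey), and the chromosome arm in brackets. Above the dashed line are the 18 genes higher than Ctrl in the HP1a-GKD-labelled libraries, under it the 12 genes lower than Ctrl. In all 30 genes the blue and the red points do not overlap, as for 7275 (77.8%) of all genes tested.

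A further 23 genes moved in opposite directions, passing the threshold against Ctrl in both knockdowns with different signs. The rule itself places Ctrl between both single knockdowns on the edgeR scale, so that position is not a separate result. By mean TPM this held in 22 of the 23, and *pr* was the exception. The mean TPM of double-GKD, which the rule does not use, lay between both single knockdowns in 19. Of them 10 rose in the Piwi-GKD-labelled libraries and fell in the HP1a-GKD-labelled ones, and 13 did the reverse. All but *Drsl4* and *S-Lap1*, given above, were named after their values were seen. Among the first, the cytochrome P450 *Cyp6a17* had 57.3 and 54.7 TPM in the Piwi-GKD-labelled libraries, against 7.35 and 7.73 TPM in the HP1a-GKD-labelled ones, 21.8 and 22.1 TPM in double-GKD and 15.9 and 18.8 TPM in Ctrl. *Dat*, the dopamine N-acetyltransferase, had 168 and 124 TPM in the Piwi-GKD-labelled libraries, against 25.2 and 28.1 TPM in the HP1a-GKD-labelled ones and 43.1 and 36.8 TPM in Ctrl. *CG5773* had 42.9 and 38.2 TPM in the Piwi-GKD-labelled libraries, against 1.33 and 1.87 TPM in the HP1a-GKD-labelled ones and 9.08 and 8.0 TPM in Ctrl. In each of the 3 the replicates of a group were close and the groups far apart, with direct log2 fold changes of 2.54, 2.10 and 4.30. The P450 gene *Cyp6d2*, the glucuronosyltransferase *Ugt317A1*, *NimA*, *CG1850*, *CG8888*, *CG30148* and FBgn0250870 made up the rest of these 10.

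Of the 13 genes that fell in the Piwi-GKD-labelled libraries and rose in the HP1a-GKD-labelled ones, *Marf1*, a regulator of oocyte mRNA, had 17.1 and 17.1 TPM in the Piwi-GKD-labelled libraries, against 117 and 113 TPM in the HP1a-GKD-labelled ones, 30.9 and 33.3 TPM in double-GKD and 74.6 and 68.7 TPM in Ctrl. *GstE14*, a glutathione S-transferase of ecdysteroid synthesis, had 6.22 and 4.55 TPM in the Piwi-GKD-labelled libraries, against 43.5 and 41.5 TPM in the HP1a-GKD-labelled ones and 14.3 and 12.6 TPM in Ctrl. FBgn0010549, an ABC transporter gene, had 0.544 and 0.435 TPM in the Piwi-GKD-labelled libraries, against 12.5 and 11.7 TPM in the HP1a-GKD-labelled ones and 1.61 and 1.52 TPM in Ctrl. Each of these 3 had both knockdowns outside the range of Ctrl, on the opposite sides that the rule for the class asks for. The P450 gene *Cyp12d1-d*, *pr* of pteridine synthesis, *pcs*, *CG5504*, *CG18853*, *CG4582*, FBgn0037726, *Drsl4* and *S-Lap1* were also among the 13. The 23 genes became 10 and 7 without Ctrl replicates 1 and 2, and 2 and 6 without HP1a-GKD-labelled replicates 1 and 2.

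Genes that moved the same way in both knockdowns, but by different amounts, were also few. Against Ctrl, 51 genes rose in both, 21 of them more in the Piwi-GKD-labelled libraries and 17 more in the HP1a-GKD-labelled ones by the direct test. Among these 17 was *Dcr-2*, which had 230 and 186 TPM in the Piwi-GKD-labelled libraries, against 514 and 617 TPM in the HP1a-GKD-labelled ones (direct log2 fold change -1.80, SE 0.11, adjusted p = 2.6e-05, edgeR). Every genotype carries UAS-Dcr-2.D, and reads from that transgene and from the gene itself cannot be told apart. *Drip*, an aquaporin, was among the other 21, with a mean of 158 TPM in the Piwi-GKD-labelled libraries, against 48.5 TPM in the HP1a-GKD-labelled ones and 29.8 TPM in Ctrl. Of the 24 genes that fell in both, 3 were lower in the HP1a-GKD-labelled libraries (*piwi*, *Damm* and *CG5096*) and 13 lower in the Piwi-GKD-labelled ones.

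Most genes of the small classes were on chromosome 2. By the Release 6 gene annotation 3504 of the 9024 tested genes with a chromosome (38.8%) are on chromosome 2, and so were 23 of the 30 genes specific to the HP1a-GKD-labelled libraries (76.7%), 16 of them on 2L, and 18 of the 21 genes with opposite directions and a known chromosome (85.7%), 15 of them on 2R. Genes specific to the HP1a-GKD-labelled libraries made up 0.656% of the chromosome 2 genes and 0.127% of the others, and genes with opposite directions 0.514% and 0.0545%. All genes that differed between the HP1a-GKD-labelled libraries and Ctrl gave 2.20% of chromosome 2 and 0.799% of the others, while those that differed between the Piwi-GKD-labelled libraries and Ctrl gave 58.3% and 58.4%. By the labels, HP1a-GKD-labelled females and Ctrl share the driver over Cy as chromosome 2 and differ at chromosome 3. By the names of the tables, these females would carry the Piwi RNAi construct and differ from Ctrl at chromosome 2, where the Cy balancer of Ctrl would be missing. The part of the parental chromosomes in these differences was not tested. The share of chromosome 2 stayed above 38.8% for both classes in every alternative, with 4 of 8 genes as the lowest share for the first, without HP1a-GKD-labelled replicate 2, and 80.0% for the second, with the replicate block. Without HP1a-GKD-labelled replicate 1 only 6 and 2 genes were left.

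**Figure D4:**
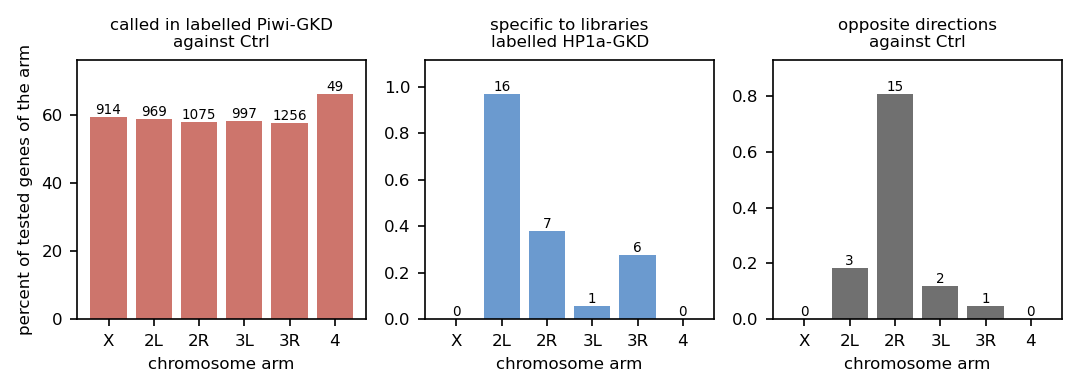
Percent of the tested genes of each chromosome arm that were called in the Piwi-GKD-labelled libraries against Ctrl (left), were specific to the HP1a-GKD-labelled libraries (middle) or moved in opposite directions against Ctrl (right), with the number of genes over each bar. The left bars lie between 57.6 and 66.2%, while 16 genes on 2L stand out in the middle and 15 genes on 2R on the right.

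On chromosome 4, whose genes lie in chromatin bound by HP1a, 44 of 74 tested genes (59.5%) were higher in the Piwi-GKD-labelled libraries and 10 (13.5%), or 5 with library totals, higher in the HP1a-GKD-labelled ones, and none of these 10 passed 2-fold. Over all genes tested these shares were 27.4% and 27.8%. The median log2 fold change was 0.58, beside 0.0040 over all genes. *yellow-h* had 15.9 and 20.6 TPM in the Piwi-GKD-labelled libraries, against 2.97 and 2.6 TPM in the HP1a-GKD-labelled ones and 2.98 and 3.30 TPM in Ctrl (log2 fold change 2.37, SE 0.25, adjusted p = 2.2e-04, edgeR). *RhoGAP102A* had 37.4 and 30.6 TPM in the Piwi-GKD-labelled libraries, against 6.72 and 6.65 TPM in the HP1a-GKD-labelled ones and 6.38 and 6.53 TPM in Ctrl. *apolpp*, the apolipophorin of the fat body, had 37.7 and 53.8 TPM in the Piwi-GKD-labelled libraries, against 6.82 and 8.36 TPM in the HP1a-GKD-labelled ones. In these 3 genes the groups were far apart, and *apolpp* is a gene of the fat body, whose markers differed in the same direction. No chromosome 4 gene passed the adjusted threshold between the HP1a-GKD-labelled libraries and Ctrl, where 1.37% of all genes tested passed, while 40 rose and 9 fell in the Piwi-GKD-labelled ones.

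Most germline markers were higher in the HP1a-GKD-labelled libraries. Of 19 germline markers, 1 (5.26%) was higher in the Piwi-GKD-labelled libraries and 14 (73.7%) higher in the HP1a-GKD-labelled ones, beside 27.4% and 27.8% of all genes tested, with a median log2 fold change of -1.12. With library totals 4 were higher in the Piwi-GKD-labelled libraries. *pgc*, the transcriptional repressor of the embryonic germ cells, had 10.6 and 7.69 TPM in the Piwi-GKD-labelled libraries, against 215 and 200 TPM in the HP1a-GKD-labelled ones and 208 and 263 TPM in Ctrl (-4.71, SE 0.20, adjusted p = 1.4e-05, edgeR). *osk*, which builds the germ plasm, had 163 and 154 TPM in the Piwi-GKD-labelled libraries, against 895 and 866 TPM in the HP1a-GKD-labelled ones and 1025 and 1060 TPM in Ctrl. *swa* and *exu*, both needed to localise bicoid mRNA, had log2 fold changes of -3.42 and -3.10. Other germline markers did not pass. *tud* stood at 128 and 97.0 TPM in the Piwi-GKD-labelled libraries, against 80.9 and 85.0 TPM in the HP1a-GKD-labelled ones, and *stau* and *spn-E* did not pass either. The summed TPM of the list were 911 and 803 in the Piwi-GKD-labelled libraries, against 2170 in each of the HP1a-GKD-labelled ones and 2474 and 2453 in Ctrl. None of these markers passed the adjusted threshold between the HP1a-GKD-labelled libraries and Ctrl, although their sum lay below both Ctrl libraries. Of all genes tested only 1.37% passed in that comparison.

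Egg activation genes were higher in the HP1a-GKD-labelled libraries, while eggshell genes lay on both sides. Of all genes tested 27.4% were higher in the Piwi-GKD-labelled libraries and 27.8% higher in the HP1a-GKD-labelled ones. Of 12 egg activation genes none was higher in the Piwi-GKD-labelled libraries and 11 (91.7%) were higher in the HP1a-GKD-labelled ones (median -1.55). *mtrm*, an inhibitor of Polo kinase in the oocyte, had 8.52 and 8.92 TPM in the Piwi-GKD-labelled libraries, against 112 and 108 TPM in the HP1a-GKD-labelled ones and 141 and 146 TPM in Ctrl. The poly(A) polymerase gene *wisp* and the translational repressor gene *smg* had log2 fold changes of -2.59 and -2.38. Of 25 eggshell genes only 9 had enough counts to be tested, and the chorion genes *Cp36* and *Cp38* stayed under 1.1 TPM in every RNA library. Among the 9, *clos*, *psd*, *ndl*, *fs(1)N* and *fs(1)M3* were higher in the HP1a-GKD-labelled libraries. The vitelline membrane gene *fs(1)N* stood at 5.26 and 5.14 TPM in the Piwi-GKD-labelled libraries, against 65.4 and 61.3 TPM in the HP1a-GKD-labelled ones, and *fs(1)M3* at 12.3 and 12.2 TPM in the Piwi-GKD-labelled libraries, against 86.9 and 84.3 TPM in the HP1a-GKD-labelled ones. The other 4 were higher in the Piwi-GKD-labelled libraries, among them *dec* with 30.8 and 24.0 TPM in the Piwi-GKD-labelled libraries, against 6.39 and 7.31 TPM in the HP1a-GKD-labelled ones. Of the 4 yolk genes, the yolk receptor gene *yl* was the only one to pass, with 60.6 and 49.0 TPM in the Piwi-GKD-labelled libraries, against 459 and 410 TPM in the HP1a-GKD-labelled ones. The yolk protein genes *Yp1*, *Yp2* and *Yp3* differed more between replicates than between groups.

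Muscle, fat body and blood cell genes were on the other side. The shares below stand beside 27.4% of all genes tested higher in the Piwi-GKD-labelled libraries and 27.8% higher in the HP1a-GKD-labelled ones. Of 20 muscle genes 18 (90.0%) were higher in the Piwi-GKD-labelled libraries and none higher in the HP1a-GKD-labelled ones (median 1.36), and their summed TPM were 20100 and 16540 in the Piwi-GKD-labelled libraries, against 5366 and 5945 in the HP1a-GKD-labelled ones and 4948 and 4787 in Ctrl. Of 16 fat body and haemocyte genes 14 (87.5%) were higher in the Piwi-GKD-labelled libraries and none higher in the HP1a-GKD-labelled ones (median 2.27), with sums of 1787 and 1840 TPM, against 579 and 599 TPM in the HP1a-GKD-labelled libraries and 648 and 406 TPM in Ctrl. *Hml*, a haemocyte clotting factor, had 65.6 and 44.6 TPM in the Piwi-GKD-labelled libraries, against 6.83 and 6.24 TPM in the HP1a-GKD-labelled ones and 9.08 and 7.14 TPM in Ctrl. *Lsp1gamma*, a larval serum protein of the fat body, had 76.8 and 148 TPM in the Piwi-GKD-labelled libraries, against 12.7 and 19.4 TPM in the HP1a-GKD-labelled ones. *PPO2*, a prophenoloxidase of crystal cells, had 16.6 and 15.4 TPM in the Piwi-GKD-labelled libraries, against 1.46 and 2.01 TPM in the HP1a-GKD-labelled ones. Of 15 neuronal genes 6 (40.0%) were higher in the Piwi-GKD-labelled libraries and 1, which was not called with library totals, DESeq2 size factors or DESeq2, higher in the HP1a-GKD-labelled ones (median 0.42), and the complexin gene *cpx* had the largest difference, 13.3 and 12.8 TPM in the Piwi-GKD-labelled libraries, against 2.38 and 2.85 TPM in the HP1a-GKD-labelled ones. The part of the cell type makeup of the dissected tissue in the other differences between the single knockdowns was not tested.

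Follicle cell markers lay on both sides, with 2 of 10 (20.0%) higher in the Piwi-GKD-labelled libraries, 3 (30.0%) higher in the HP1a-GKD-labelled ones and a median of -0.06, while library totals gave 5 and 2 genes and a median of 0.16. Of all genes tested 27.4% and 27.8% were called on these sides. The adhesion gene *Fas3* had 237 and 167 TPM in the Piwi-GKD-labelled libraries, against 48.2 and 55.5 TPM in the HP1a-GKD-labelled ones and 41.3 and 34.1 TPM in Ctrl. The transcription factor gene *peb* had 8.11 and 4.08 TPM in the Piwi-GKD-labelled libraries, against 14.2 and 14.4 TPM in the HP1a-GKD-labelled ones. *tj*, the general marker of somatic gonad cells, did not pass, with 34.6 and 31.3 TPM in the Piwi-GKD-labelled libraries, against 22.5 and 23.1 TPM in the HP1a-GKD-labelled ones.

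**Figure D5:**
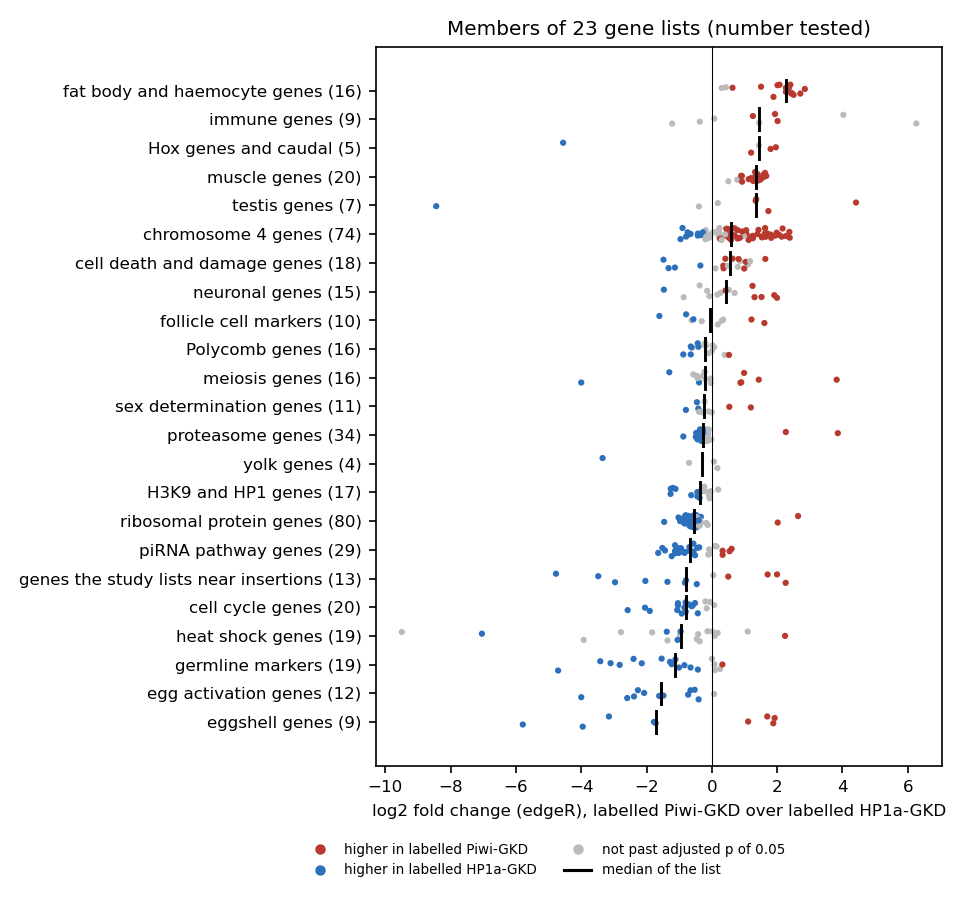
Each point is 1 tested member of the list named at left, with its edgeR log2 fold change, Piwi-GKD-labelled over HP1a-GKD-labelled, on the horizontal axis, and each black line is the median of a list. Red points were higher in the Piwi-GKD-labelled libraries, blue points higher in the HP1a-GKD-labelled ones and grey points did not pass. Fat body and haemocyte genes have the highest median (2.27) and eggshell genes the lowest (-1.72), with 4 of 9 eggshell genes on the opposite side.

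Genes of the pathways of both targets differed between the knockdowns. Of 29 piRNA pathway genes 4 (13.8%) were higher in the Piwi-GKD-labelled libraries and 20 (69.0%) higher in the HP1a-GKD-labelled ones (median -0.68), beside 27.4% and 27.8% of all genes tested. The 20 included *del*, *aub*, *tej* and *BoYb*. *del* (deadlock), a partner of the HP1 protein rhino at piRNA clusters, had 10.9 and 8.16 TPM in the Piwi-GKD-labelled libraries, against 23.2 and 23.3 TPM in the HP1a-GKD-labelled ones and 35.2 and 25 TPM in Ctrl (-1.64, SE 0.13, adjusted p = 6.0e-05, edgeR). The Argonaute gene *aub* had 75.1 and 69.8 TPM in the Piwi-GKD-labelled libraries, against 129 and 138 TPM in the HP1a-GKD-labelled ones and 157 and 155 TPM in Ctrl. The Tudor genes *tej* and *BoYb* had log2 fold changes of -1.52 and -1.44. Besides *piwi*, the 4 higher in the Piwi-GKD-labelled libraries were *armi*, *tapas* and *fs(1)Yb*, the last with 30.1 and 24.6 TPM in the Piwi-GKD-labelled libraries, against 12.3 and 15.9 TPM in the HP1a-GKD-labelled ones. *Panx* and *arx*, which act with Piwi in nuclear silencing, did not pass.

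Of 17 H3K9 and HP1 genes none was higher in the Piwi-GKD-labelled libraries and 10 (58.8%), the target *HP1a* among them, were higher in the HP1a-GKD-labelled ones (median -0.38). Of all genes tested 27.4% and 27.8% were called on these sides. With library totals 1 and 5 of the 17 were called. The methyltransferase gene *Su(var)3-9* had 12.4 and 12.2 TPM in the Piwi-GKD-labelled libraries, against 23.5 and 22.9 TPM in the HP1a-GKD-labelled ones and 29.7 and 27.9 TPM in Ctrl. *G9a*, which also methylates this lysine, had 19.8 and 16.8 TPM in the Piwi-GKD-labelled libraries, against 33.9 and 33.3 TPM in the HP1a-GKD-labelled ones. For *HP1b* and *HP5*, also among the 10, mean TPM did not go the way of the edgeR difference, and the methyltransferase gene *egg* did not pass. Of 16 Polycomb genes 1 (6.25%) was higher in the Piwi-GKD-labelled libraries and 6 (37.5%) higher in the HP1a-GKD-labelled ones (median -0.20), while library totals gave 2 and 3 genes and a median of 0.02. Among the 6, *Caf1-55* had the largest difference, 131 and 113 TPM in the Piwi-GKD-labelled libraries, against 167 and 183 TPM in the HP1a-GKD-labelled ones. Of the 5 genes tested among the Hox genes and *cad*, the 3 genes *abd-A*, *Abd-B* and *Antp* (60.0%) were higher in the Piwi-GKD-labelled libraries, *cad* (20.0%) was higher in the HP1a-GKD-labelled ones, and *Ubx* did not pass. These shares of few genes stand beside the same 27.4% and 27.8%. *abd-A*, which specifies abdominal segments, had 39.2 and 28.7 TPM in the Piwi-GKD-labelled libraries, against 6.17 and 7.14 TPM in the HP1a-GKD-labelled ones and 5.91 and 5.32 TPM in Ctrl. The 14 genes that the study lists near transposon insertions were chosen on these samples and are not independent evidence of their direction. Of the 13 tested, 4 (30.8%, close to the 27.4% of all genes tested) were higher in the Piwi-GKD-labelled libraries. Another 8 (61.5%, beside 27.8%), or 5 with library totals, were higher in the HP1a-GKD-labelled ones, led by *CG7296*, *CG34430* and *flip*. *flip* had 2.13 and 1.88 TPM in the Piwi-GKD-labelled libraries, against 12.9 and 9.72 TPM in the HP1a-GKD-labelled ones and 0.170 and 0.375 TPM in Ctrl.

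Most ribosomal protein and cell cycle genes were higher in the HP1a-GKD-labelled libraries. Of 80 ribosomal protein genes 2 (2.5%) were higher in the Piwi-GKD-labelled libraries and 65 (81.2%) higher in the HP1a-GKD-labelled ones (median -0.55), or 42 with library totals, beside 27.4% and 27.8% of all genes tested. Both genes on the first side are paralogues, *RpS19b*, with 243 and 260 TPM in the Piwi-GKD-labelled libraries, against 32.1 and 31.5 TPM in the HP1a-GKD-labelled ones, and *RpS10a*, with 105 and 119 TPM in the Piwi-GKD-labelled libraries, against 21.1 and 22.7 TPM in the HP1a-GKD-labelled ones. Of 34 proteasome genes 2 (5.88%) were higher in the Piwi-GKD-labelled libraries and 18 (52.9%) higher in the HP1a-GKD-labelled ones (median -0.26), or only 2 with library totals, and the 2 on the first side were the paralogues *Rpt6R* and *Rpt3R*. Of 20 cell cycle genes none was higher in the Piwi-GKD-labelled libraries and 16 (80.0%) were higher in the HP1a-GKD-labelled ones (median -0.80). *CycB*, a mitotic cyclin, had 98.9 and 73.1 TPM in the Piwi-GKD-labelled libraries, against 403 and 398 TPM in the HP1a-GKD-labelled ones and 508 and 422 TPM in Ctrl. *CycA* and the Cdc25 gene *stg* had log2 fold changes of -2.05 and -1.90.

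Of 18 cell death and damage genes 8 (44.4%) were higher in the Piwi-GKD-labelled libraries and 4 (22.2%) higher in the HP1a-GKD-labelled ones (median 0.56), beside 27.4% and 27.8% of all genes tested. The tumour necrosis factor gene *egr* had 66.1 and 59.6 TPM in the Piwi-GKD-labelled libraries, against 15.1 and 16.6 TPM in the HP1a-GKD-labelled ones and 17.1 and 14.8 TPM in Ctrl, and *p53* had 50.5 and 48.8 TPM in the Piwi-GKD-labelled libraries, against 18.2 and 19.9 TPM in the HP1a-GKD-labelled ones and 17.6 and 18.3 TPM in Ctrl. The checkpoint kinase gene *lok* lay on the other side, with 71.5 and 67.7 TPM in the Piwi-GKD-labelled libraries, against 148 and 159 TPM in the HP1a-GKD-labelled ones, as did the caspase gene *Dcp-1*. Of 19 heat shock genes 1 (*Hsp67Ba*) was higher in the Piwi-GKD-labelled libraries and 4 (21.1%) higher in the HP1a-GKD-labelled ones (median -0.96), and the inducible *Hsp70Aa* differed between replicates, at 117 and 114 TPM in the Piwi-GKD-labelled libraries, 76.9 and 393 TPM in the HP1a-GKD-labelled ones and 60.8 and 786 TPM in Ctrl. Of 9 immune genes 3 (*Drs*, *PGRP-LB* and *PGRP-SA*) were higher in the Piwi-GKD-labelled libraries and none higher in the HP1a-GKD-labelled ones (median 1.45), and this 33.3% is close to the share of all genes. *Drs*, which encodes drosomycin, had 106 and 120 TPM in the Piwi-GKD-labelled libraries, against 24.5 and 22.1 TPM in the HP1a-GKD-labelled ones, and its call was lost without HP1a-GKD-labelled replicate 1 or 2 (adjusted p = 0.059 and 0.073, edgeR).

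Of 16 meiosis genes 5 (31.2%) were higher in the Piwi-GKD-labelled libraries and 3 (18.8%) higher in the HP1a-GKD-labelled ones (median -0.21, or 0.02 with library totals), the first share being close to the 27.4% of all genes tested and the second under their 27.8%. *ord*, needed for cohesion of sister chromatids, had 14.9 and 14.2 TPM in the Piwi-GKD-labelled libraries, against 0.650 and 0.968 TPM in the HP1a-GKD-labelled ones, 6.85 and 6.26 TPM in double-GKD and 0.462 and 0.640 TPM in Ctrl (log2 fold change 3.82, SE 0.25, adjusted p = 3.1e-05, edgeR). Of 11 sex determination genes 2 (*dsx* and *fru*, 18.2%) were higher in the Piwi-GKD-labelled libraries and 3 (*tra2*, *fl(2)d* and *msl-2*, 27.3%), or 1 with library totals, higher in the HP1a-GKD-labelled ones (median -0.26), so neither share was above that of all genes tested. The call of *fru* was lost without HP1a-GKD-labelled replicate 1 or Piwi-GKD-labelled replicate 1 (adjusted p = 0.060 and 0.052, edgeR). *Sxl* had 175 and 129 TPM in the Piwi-GKD-labelled libraries, against 129 and 130 TPM in the HP1a-GKD-labelled ones, with no difference called. Of 30 testis genes only 7 had enough counts, of which 4 were higher in the Piwi-GKD-labelled libraries, or 2 by DESeq2, and 1, *S-Lap1*, higher in the HP1a-GKD-labelled ones (57.1 and 14.3%). The call of *tomb*, among the 4, was lost when any 1 of the 4 single-knockdown libraries was left out. *Taf12L*, a testis-specific subunit of the general transcription machinery, had 32.5 and 33.4 TPM in the Piwi-GKD-labelled libraries, against 1.85 and 0.525 TPM in the HP1a-GKD-labelled ones and 1.25 and 2.05 TPM in Ctrl.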

How the data were processed

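RNA of 8 ovary libraries (4 groups, 2 replicates each) was depleted of rRNA and sequenced by the authors as single-end reads, aligned to Release 5 of the genome with STAR and quantified with Salmon, per the paper's methods and the submitters' notes. Versions and the use of strand in counting are not given in the sources used here. The deposited estimated counts are Salmon's reads per gene, not normalized. TPM, as the authors deposited them, scale the counts by effective gene length to the same sum in each library. The smallest library held 10773406 and the largest 12802084 estimated counts, so that 3 counts equal 0.278 and 0.234 CPM. Intervals and this floor cover counting error only. The deposited list of insertion sites was not used.

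Groups follow the sample labels, which go against the names of the tables and the target mRNAs. Counts of 13937 genes were rounded, filtered with filterByExpr and fitted in edgeR 4.0.16 (R 4.3.3, limma 3.58.1) by glmQLFit over all 8 libraries with TMM factors and no covariates, and 9346 genes were tested with Benjamini-Hochberg adjustment at 0.05. TMM factors were 1.10 and 1.09 in the Piwi-GKD-labelled libraries and 0.938 and 0.927 in the HP1a-GKD-labelled ones. Names and arms came from a Release 6 gene table, which held 13484 of the genes. Between replicates, log2 values correlated across genes (not independent replicates) with Pearson's r of 0.966 in the Piwi-GKD-labelled libraries and 0.982 in the HP1a-GKD-labelled ones. Steps outside R used Python 3.11.15 with pandas 2.3.3 and matplotlib 3.10.9. Each fitting script was first tested on simulated counts. Reads of genes that overlap a neighbour may be split wrongly, which touches *CG4438* and *CG8119* among others.

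Named genes were *piwi*, *HP1a* and *cad*, and per list the 3 members with the largest difference among those that passed. Per direction they also included the 8 protein-coding genes with the largest difference at a mean TPM of at least 5 and the 6 most abundant over 2-fold. The 6 with the largest direct difference in each specific class were named as well. Genes with the same span as another and genes whose TPM overlapped between groups were left out, except for list members, *piwi*, *HP1a* and *cad*. Other genes were named after their values were seen. The comparison, the classes and the 23 lists were chosen with earlier results of these data known. Alternatives were DESeq2 1.42.0 as the test, its size factors, library totals, no filter, fewer libraries, effective lengths as offset, the replicate number as a block, and each library left out in turn. Some results for single genes are not reported here.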

Additional observations from a re-analysis of the deposited data

How the results depend on the processing

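Both target differences kept direction and side of the threshold in all alternatives, as did 93 of 106 single genes followed through them, and no result reversed. The 13 that lost their call under at least 1 alternative were 4 copies of *His1* and *Argl*, *Drs*, *Hsp70Ba*, *Nos*, *VGlut*, *dpr7*, *fru*, *mei-P22* and *tomb*. DESeq2 gave 30 upregulated and 24 downregulated genes specific to the HP1a-GKD-labelled libraries, and library totals gave 1714 genes higher in those libraries and 1506 downregulated genes specific to the Piwi-GKD-labelled libraries. With 1 library left out, where the lone library of a group is assumed to vary like the others, genes higher in the Piwi-GKD-labelled libraries numbered 1888 to 2626 and over 2-fold 1326 to 1567, genes higher in the HP1a-GKD-labelled ones 1880 to 2664 and over 2-fold 775 to 843. Specific to the Piwi-GKD-labelled libraries were 1774 to 2215 upregulated and 1788 to 2277 downregulated genes, and specific to the HP1a-GKD-labelled ones 5 to 23 and 1 to 12. The log2 fold change of *piwi* then ran from 0.52 to 0.55 and that of *HP1a* from -1.47 to -1.09. The share on chromosome 2, an alternative added after seeing the data, was lowest, 4 of 8 specific genes, without HP1a-GKD-labelled replicate 2. Whether replicate numbers pair the samples is not clear. Deviations of same-numbered libraries correlated by -0.0432 between both single knockdowns and by more than 0.1 in 4 of the 6 pairs of groups (0.233 at most). With the replicate number as a block 2762 genes were higher in the Piwi-GKD-labelled libraries and 2905 higher in the HP1a-GKD-labelled ones, 193 rather than 128 genes differed between the HP1a-GKD-labelled libraries and Ctrl, and 34 rather than 23 moved in opposite directions. DESeq2 gave 241 and 35 genes for these counts. With 2 libraries per group, small differences in low genes were not detectable at this depth.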
